A study of Mus musculus with 12 samples.

Results

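Ddit4 encodes REDD1, the protein removed in the knockout mice of this study, and Ddit4l encodes its paralogue REDD2. The platform annotation paired each gene with 1 transcript cluster, the set of probes that reads 1 gene on this array, and no other cluster carried either symbol. These 2 genes, of 22180 genes with a cluster of their own, are described here over the 4 groups of 3 arrays. All mice were male and 12 weeks old, all went without food for 3 hours, and all samples were plantaris, a calf muscle of mostly fast fibres. Wild-type mice and REDD1 knockout mice were each either left sedentary or sampled 1 hour after 1 bout of aerobic exercise, which gives the groups called wild-type and knockout, sedentary (at rest) and exercised. The labels do not give the deleted allele, the strain background or the type and length of the exercise, and no pooling is stated. They do not say outright that each array is a separate animal, so p-values measure the spread between these arrays.

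REDD1 and REDD2 are small proteins without a known enzymatic activity that hold back mTORC1, the kinase complex that promotes protein synthesis, through the TSC complex and its target, the GTPase Rheb. Ddit4 is a stress-response gene whose transcription is known to be raised by glucocorticoids, low oxygen, ATF4 and p53, and both its mRNA and its protein are short-lived. Ddit4l is known to be strongly expressed in skeletal muscle. The comparisons therefore ask how the 2 genes respond to exercise, what the knockout leaves of the Ddit4 signal, and whether Ddit4l differs where REDD1 is missing.

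All 10 skeletal muscle markers, such as the fast myosin gene Myh4 and the creatine kinase gene Ckm, lay above the median of the table (4.56 on the log2 scale) on every array. None of 4 neutrophil markers passed the filter on dim genes. Endothelial markers were lower after exercise, with a list level, the mean difference of its 6 members from their 12-array means, of 0.10 to 0.28 on the 6 sedentary arrays and -0.32 to -0.05 on the 6 exercised ones. Of these markers, Kdr fell in each genotype by limma's test. All 6 were detected above the median on all arrays. Fibroblast and matrix markers stood apart on knockout sedentary replicate 3, at 1.08 against -0.33 to 0.17 on the other 11 arrays. The level of the nerve and Schwann cell list peaked at 0.78 on wild-type exercised replicate 1. In whole muscle, fewer cells of a type and less RNA per cell cannot be told apart.

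The targeted gene was checked first. On the log2 scale Ddit4 in wild type measured 6.13, 5.83 and 6.02 at rest and 9.05, 8.40 and 8.62 after exercise. In the knockout it measured 5.32, 5.44 and 5.08 at rest and 6.46, 5.72 and 6.77 after exercise. Every knockout array was below every wild-type array of the same condition, and wild-type exercised arrays stood above all others. The share of all genes whose groups stand apart in this way was not counted, here or below. No array fell to the table median: the knockout sedentary mean was still 0.72 above it, although that median is no measure of background. Which exons the probes read and which were deleted is not given in the sources used here, so the signal in the knockout cannot be assigned to a transcript.

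**Figure D1:**
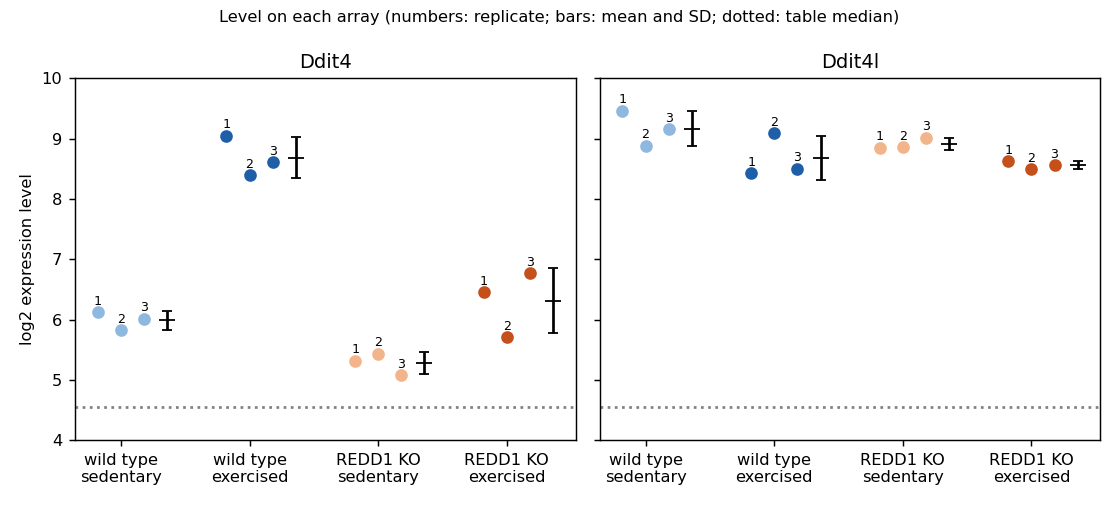
Log2 expression of Ddit4 (left) and Ddit4l (right) on each of the 12 arrays, by group; numbers mark the replicate, the bar beside each group is the mean with its SD (n = 3), and the dotted line is the table median of 4.56. Ddit4 is highest on the wild-type exercised arrays (8.40 to 9.05), while Ddit4l lies between 8.43 and 9.47 on all 12.

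The stretch before the start of each gene is shown because Ddit4 rose after exercise while its paralogue did not rise. Both are the 250 bases before the RefSeq start, 5′ to 3′ along the gene, from build GRCm38, with capitals on every match to the motifs searched. Ddit4 lies on the minus strand of chromosome 10 (gene at chr10:59949675-59951770, window chr10:59951771-59952020). Ddit4l lies on the plus strand of chromosome 3 (gene at chr3:137623672-137628332, window chr3:137623422-137623671).
Ddit4: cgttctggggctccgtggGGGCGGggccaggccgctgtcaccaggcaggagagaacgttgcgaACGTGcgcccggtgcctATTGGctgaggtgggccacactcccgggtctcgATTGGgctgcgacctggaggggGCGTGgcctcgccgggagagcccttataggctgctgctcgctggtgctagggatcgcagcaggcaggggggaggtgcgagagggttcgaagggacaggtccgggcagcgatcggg
Ddit4l: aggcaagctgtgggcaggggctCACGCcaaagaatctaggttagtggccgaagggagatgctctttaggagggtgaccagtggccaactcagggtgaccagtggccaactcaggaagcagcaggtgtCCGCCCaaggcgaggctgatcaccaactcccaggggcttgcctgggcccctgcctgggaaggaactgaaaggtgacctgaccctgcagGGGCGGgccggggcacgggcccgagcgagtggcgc

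The windows held 70.0% and 65.2% G and C, against a median of 52.4% over 32851 such windows of the reference. The Ddit4 window held the hypoxia response core as ACGTG, 187 to 183 bases before the start, a match also present in 16.6% of all windows. It held GCGTG, the other form of that core, once, at 115 to 111 bases (28.2% of windows). It also held the GC box GGGCGG once (32.7%) and CCAAT in 2 places on the opposite strand (33.8%). The Ddit4l window held the hypoxia response core once, as GCGTG, and GGGCGG in 2 places, and neither ACGTG nor CCAAT. Neither window held the cAMP response element TGACGTCA (1.55% of windows), the C/EBP-ATF element TGATGNAA (3.45%), the E-box CACGTG (6.02%), TATAAA (12.4%) or AGAACA (16.1%), the unit repeated in the glucocorticoid receptor palindrome. Nor did either hold that palindrome in full (0.00913%). Both strands were searched, CACGTG contains ACGTG and the palindrome contains AGAACA, and the matches printed do not overlap. A match describes letters only and says nothing on binding.

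Ddit4 rose in wild-type muscle after exercise, from a mean of 5.99 ± 0.15 to 8.69 ± 0.33 (log2, SD, n = 3). This is 6.49-fold, with a 95% interval of 4.69 to 8.99 (limma log2 fold change 2.70, SE 0.22, adjusted p = 4.73e-05). Of 13747 genes tested it had the largest rise and the smallest p in this contrast, in which 0.567% of genes were called, that is, had an adjusted p under 0.05. On the linear scale the level went from 63.8 ± 6.65 to 420 ± 100.2 (SD, n = 3). With wild-type exercised replicate 1 left out, where Schwann cell markers were highest, the log2 fold change was 2.52 (adjusted p = 0.000188).

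In the knockout the remaining Ddit4 signal was also higher after exercise, but it did not pass. All 3 exercised arrays were above all 3 sedentary ones, which groups of this size can show by chance. The means were 5.28 ± 0.18 and 6.32 ± 0.54 (log2, SD, n = 3), a 2.05-fold difference with a 95% interval of 1.48 to 2.84 (limma log2 fold change 1.04, SE 0.22, adjusted p = 0.0679). In this contrast 0.276% of genes were called, and Ddit4 ranked 22nd by size among the genes that were higher. The knockout exercised group had the widest spread of any Ddit4 group, from 5.72 in replicate 2 to 6.77 in replicate 3. The call turned on single arrays: without replicate 2 of that group the log2 fold change was 1.34 (adjusted p = 0.00658), and without wild-type exercised replicate 1 the p fell to 0.0409 at the same 1.04. Without knockout sedentary replicate 3, where matrix markers were high, it was 0.94 (adjusted p = 0.228).

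Set against each other, the exercise effect on Ddit4 was smaller in the knockout by 1.66 on the log2 scale (95% interval -2.33 to -0.999, SE 0.31). This was the smallest unadjusted p of all genes (8.38e-05), and it did not pass over all genes (limma adjusted p = 0.633). No gene did, so 0% were called, while 620 genes had an unadjusted p under 0.05 by limma, and a linear model without moderated variances also called 0. On the linear scale the knockout signal gained 44.2 where the wild-type signal gained 357, which is 12.4% of the wild-type gain and 8.76% to 16.7% when any 1 array is left out. This scale was added after the data were seen and carries no test.

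Ddit4 was lower in the knockout in each condition, and the lower value passed the test after exercise. Ddit4 is the targeted gene, so the direction was set by the knockout, and passing the test is no separate finding. In sedentary muscle the signal in the knockout was 1.64-fold lower (limma log2 difference -0.71, 95% interval -1.18 to -0.24, SE 0.22), which did not pass (adjusted p = 0.411; 0.138% of genes were called). The highest knockout array was 5.44 and the lowest wild-type array 5.83. Groups of 3 arrays can stand apart by chance, so this separation adds nothing to the test. In exercised muscle it was 5.18-fold lower (log2 difference -2.37, 95% interval -2.84 to -1.90, SE 0.22, limma adjusted p = 0.00011; 0.175% of genes were called). That call was lost in a linear model without moderated variances (adjusted p = 0.0984). At rest the difference was -0.61 without knockout sedentary replicate 3.

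The order of the Ddit4 group means was knockout sedentary, wild-type sedentary, knockout exercised and wild-type exercised. The middle pair overlapped: knockout exercised replicate 2 lay below all 3 wild-type sedentary arrays, and the other 2 lay above them. Knockout exercised minus wild-type sedentary, a comparison added after the data were seen, was 0.33 (95% interval -0.14 to 0.80, SE 0.22, limma adjusted p = 0.623), where 1.2% of genes were called. The data thus leave room for a knockout exercised level from 0.905-fold to 1.74-fold of that in resting wild-type muscle.

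Averaged over genotypes, Ddit4 was 3.65-fold higher after exercise (log2 1.87, SE 0.16, limma adjusted p = 1.06e-05; 1.6% of genes called). Averaged over conditions, the log2 difference between knockout and wild type was -1.54 (SE 0.16, limma adjusted p = 0.000137; 0.546% of genes called). Its direction, too, was set by the knockout.

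**Figure D2:**
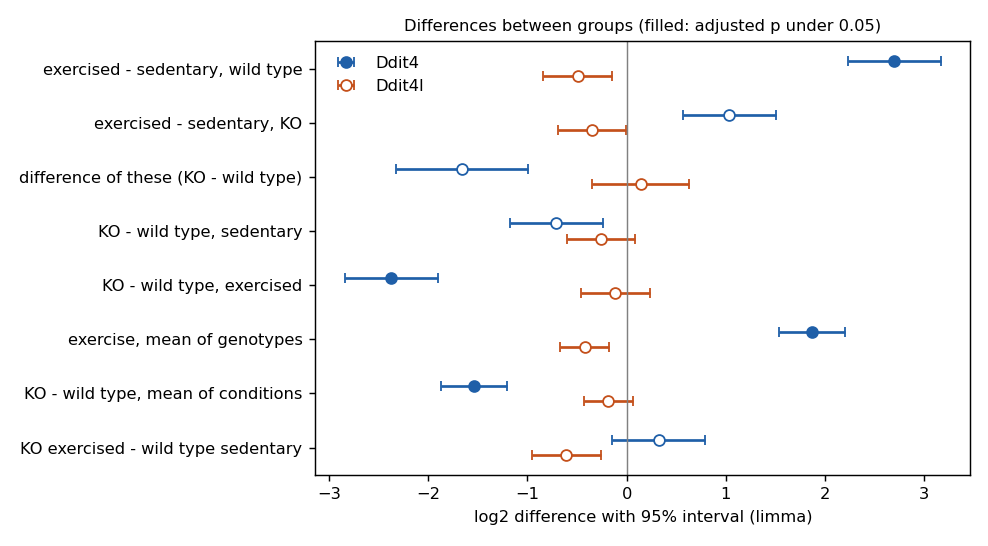
Log2 differences of Ddit4 (blue) and Ddit4l (orange) with limma's 95% intervals for 8 comparisons of the 4 groups (KO, REDD1 knockout); filled points had an adjusted p under 0.05. The Ddit4 points span -2.37 to 2.70, while those of Ddit4l stay between -0.61 and 0.14 and none is filled.

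Ddit4l was well above the table median on every array and changed far less. In wild type its log2 level was 9.47, 8.88 and 9.15 at rest and 8.43, 9.09 and 8.51 after exercise. In the knockout it was 8.85, 8.86 and 9.02 at rest and 8.63, 8.49 and 8.56 after exercise. In wild type the exercised and sedentary arrays overlapped through exercised replicate 2, which at 9.09 was higher than sedentary replicate 2. In the knockout all 3 exercised arrays were below all 3 sedentary ones, which groups of this size can show by chance. The order of the means was knockout exercised, wild-type exercised, knockout sedentary and wild-type sedentary, and each neighbouring pair in that order overlapped.

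Exercise went with lower Ddit4l values in both genotypes, without passing the test in either. The wild-type difference was -0.49 on the log2 scale (95% interval -0.84 to -0.15, SE 0.16, limma adjusted p = 0.324). The knockout difference was -0.35 (95% interval -0.70 to -0.01, SE 0.16, limma adjusted p = 0.55). Averaged over genotypes it was -0.42, or 0.746-fold with a 95% interval of 0.630 to 0.884 (limma adjusted p = 0.094), the 107th largest fall of 13747 genes. Leaving out wild-type exercised replicate 2 brought the average to -0.53 (limma adjusted p = 0.0097) and the wild-type difference to -0.70 (adjusted p = 0.0391). The endothelial markers moved with exercise as Ddit4l did, 6 of 6 with negative averaged values (median -0.28). By the test 2 of them fell (Kdr and Cdh5), where 70 of 13747 genes were called lower. Averaged values were also negative for 7 of 9 fibroblast and matrix (median -0.29), 4 of 6 macrophage and leukocyte and 2 of 3 adipocyte markers. They were negative for 3 of 10 skeletal muscle and 0 of 4 Schwann cell and nerve markers. The part of these markers in the Ddit4l values was not tested.

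No difference between genotypes was found for Ddit4l. Knockout minus wild type was -0.26 in sedentary muscle (95% interval -0.60 to 0.09, limma adjusted p = 0.755) and -0.11 in exercised muscle (95% interval -0.46 to 0.23, limma adjusted p = 0.988). The averaged interval runs from -0.43 to 0.06, so it contains falls to 0.743-fold and rises to 1.04-fold in the knockout. The difference of exercise effects was 0.14 (95% interval -0.35 to 0.63, limma adjusted p = 0.997).

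The paralogues were then compared within arrays, where any overall scaling cancels. Ddit4 minus Ddit4l in wild type was -3.34, -3.06 and -3.13 at rest and 0.63, -0.69 and 0.11 after exercise. In the knockout it was -3.53, -3.43 and -3.94 at rest and -2.17, -2.78 and -1.79 after exercise. These values depend on the probes of each gene, and only their change between groups is read. Exercise raised the difference by 2.29 averaged over genotypes, without overlap in either (exact two-sided permutation test within genotype, p = 0.005, the smallest that 400 arrangements can give). Knockout minus wild type was -1.36 averaged over conditions, again without overlap (exact two-sided permutation test within condition, p = 0.005, also the smallest possible). Adjusted over these 2 tests both stayed at 0.005. Of these, the averaged Ddit4 values alone were 1.87 and -1.54, so both tests largely restate the Ddit4 values. The 2 genes were chosen with earlier results of these data known. The exercise average also includes the knockout arrays, where the Ddit4 signal cannot be assigned to a transcript. Ddit4 is the targeted gene, so the direction of the genotype difference was set by the knockout. Its p-value therefore does not show that the paralogues respond unequally to genotype.

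The 10 genes whose pattern was most like that of Ddit4 were found by Pearson's r over the 12 arrays among 13746 other genes. The highest was Orm1, an acute-phase plasma protein gene (r = 0.91), followed by Ciapin1, an iron-sulphur protein assembly factor (0.91), Rbp7, a retinoid-binding protein gene (0.89), Smad3, a TGF-beta signal transducer (0.88), and Apbb3 (0.88). The others were Rapgef3, Skil, Tlr5, Man2c1 and Gramd3, at 0.86 to 0.87. Since the wild-type exercised arrays stand apart for Ddit4, they carry much of r. Ddit4 is also the targeted gene, so the ranking favours genes that are lower in the knockout. By Spearman's rho, 2 of these 10 were again among the first 10.

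Orm1 in wild type measured 6.18, 6.44 and 6.40 at rest and 7.37, 7.30 and 7.89 after exercise. In the knockout it measured 6.20, 6.42 and 6.23 at rest and 6.19, 6.45 and 6.71 after exercise, where the groups overlapped. None of the other arrays reached the wild-type exercised ones. Its log2 difference after exercise was 1.18 in wild type (SE 0.16) and 0.16 in the knockout (SE 0.16), and knockout minus wild type after exercise was -1.08 (SE 0.16). Orm1 and the other genes of this group were chosen for their likeness to Ddit4 on these same arrays, so their differences are a description, given with no test.

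Rbp7 values differed with genotype as well as with exercise. In wild type it measured 5.35, 5.83 and 5.996 at rest and 6.55, 6.68 and 6.68 after exercise. In the knockout it measured 4.74, 5.06 and 4.84 at rest and 5.66, 5.70 and 5.51 after exercise. All 3 exercised arrays were above all 3 sedentary ones in each genotype, and knockout arrays were below wild-type arrays in each condition. The log2 differences after exercise were 0.91 in wild type and 0.75 in the knockout, and those between knockout and wild type were -0.85 at rest and -1.01 after exercise (SE 0.15 each). After exercise in wild type Apbb3 was 1.20 higher (SE 0.11), Skil, a repressor of TGF-beta signalling, 0.65 higher (SE 0.11) and the flagellin receptor gene Tlr5 0.65 higher (SE 0.13).

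**Figure D3:**
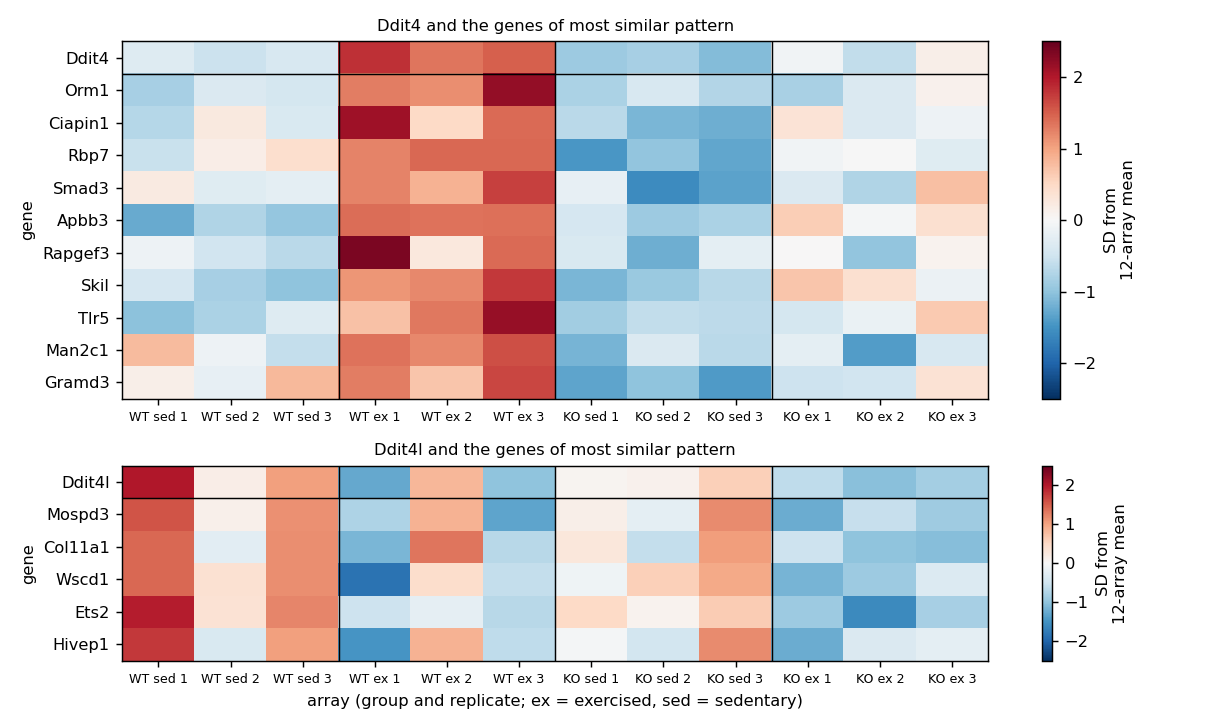
Each row is a gene and each column an array, coloured by the number of SDs from that gene's own 12-array mean; above, Ddit4 and the 10 genes of highest Pearson r with it, below, Ddit4l and the 5 of highest r with it. The upper rows are highest in the 3 wild-type exercised columns (except Gramd3, which in replicate 2 lies below its 7.03 in wild-type sedentary replicate 3). Ddit4l and its rows are highest in wild-type sedentary replicate 1.

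The 5 named genes most like Ddit4l were Mospd3 (r = 0.93), Col11a1, a fibrillar collagen gene (0.92), Wscd1 (0.91), the transcription factor gene Ets2 (0.89) and Hivep1 (0.89). After the group means were removed, r with Ddit4l was 0.74 to 0.91. Much of the spread of Ddit4l lies within groups, so choosing genes by r over the 12 arrays already favours a high value here. Col11a1, for example, was high with Ddit4l on wild-type exercised replicate 2 (6.28 against 5.72 and 5.83 on the other exercised wild-type arrays). It measured 6.21 on knockout sedentary replicate 3, where fibroblast and matrix markers were high, against 6.04 and 5.85 on the other arrays of that group, and the part of those markers in its likeness to Ddit4l was not tested. Within groups the genes nearest Ddit4 were Nsmce4a (r = 0.95), Pnpla3 (0.90) and Zscan20 (0.89), and those nearest Ddit4l were Fbxo33 (0.92), Col11a1 (0.91) and Ift172 (0.89). These values are a description over arrays of 1 table and 1 normalisation. Between Ddit4 and Ddit4l, r was -0.37 over the 12 arrays and -0.15 within groups.

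The rest of the REDD1 pathway was read from gene lists. In the mTORC1 and TSC list, 14 of 15 genes were tested and 0 were called by limma in any of the 4 comparisons of 2 groups that differ in exercise or genotype alone. At an unadjusted p under 0.05 there were 0 and 2 for exercise in wild type and knockout, and 0 and 1 for genotype at rest and after exercise. Over all 13747 genes the shares at that threshold were 8.21%, 8.93%, 7.7% and 6.58%, in the same order. Medians were -0.06 for exercise in both genotypes and 0.00 and 0.03 for genotype at rest and after exercise, beside -0.02, 0.00, -0.01 and 0.00 over all genes. Smallest in p were Eif4ebp1, the translation repressor that mTORC1 inactivates, at 0.42 for exercise in the knockout (SE 0.12, adjusted p = 0.205) and 0.42 for genotype after exercise (adjusted p = 0.325), and Rheb at 0.32 for exercise in the knockout (adjusted p = 0.278) and 0.19 in wild type (adjusted p = 0.67). Mtor itself was -0.19 for genotype at rest (adjusted p = 0.713), Deptor, an mTOR inhibitor, -0.24 for genotype after exercise (adjusted p = 0.832), and the repressor gene Eif4ebp2 -0.14 for exercise in wild type (adjusted p = 0.829).

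Of the partners of REDD1 and the factors that turn it over (15 of 16 tested), 0 were called by limma in these 4 comparisons, and in the same order 0, 1, 0 and 2 of 15 had an unadjusted p under 0.05, beside 8.21%, 8.93%, 7.7% and 6.58% of all genes. Txnip, whose product binds REDD1, was 0.27 higher in knockout exercised muscle (SE 0.10, adjusted p = 0.597). The 14-3-3 gene Ywhah, a family whose proteins have been described as REDD1 partners, was 0.24 higher after exercise in wild type (adjusted p = 0.67) and 0.29 higher in the knockout (adjusted p = 0.487). Ywhah turned to -0.072 in wild type when the clusters of a gene were averaged.

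Among 11 tested factors known to act on Ddit4, Cebpb, a C/EBP transcription factor gene, rose after exercise, by 0.80 in wild type (SE 0.13, limma adjusted p = 0.00934) and by 0.72 in the knockout (SE 0.13, adjusted p = 0.0382). The knockout call stayed only without wild-type exercised replicate 1 or 2 or knockout exercised replicate 2, and was lost without any of the other 9 arrays (0.57 to 0.86 over all 12 omissions, limma adjusted p up to 0.162). It was also lost with quantile normalisation (0.69, limma adjusted p = 0.0785), without the intensity trend (adjusted p = 0.0684) and with only the 2 groups compared (adjusted p = 0.139). Over all genes 0.473% were called higher in wild type and 0.24% in the knockout. None of the other factors passed in either genotype, and the lowest values were -0.25 in wild type and -0.15 in the knockout. At an unadjusted p under 0.05 there were 3 of 11 in each genotype, Cebpb included, beside 8.21% and 8.93% of all genes. Averaged over genotypes 2 of 11 were called higher for exercise, where 1.6% of all genes were called. Among the others, values were 0.19 and 0.15 for the glucocorticoid receptor gene Nr3c1, 0.13 and 0.17 for Atf4 and 0.02 and -0.05 for Hif1a in wild type and knockout. The list medians were 0.02 in each genotype.

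Target genes of the inputs known to raise Ddit4 differed between lists. The lists were chosen with earlier results of these data known, so their counts and the contrast between them are a description. Which signal moved these genes was not tested. All 16 glucocorticoid targets were tested. In wild type 16 of 16 had positive values after exercise, 5 rose, and the median was 0.66 beside -0.02 over all genes, where 0.473% of genes were called higher. The rises were led by the metallothionein genes Mt2 (2.00, SE 0.18) and Mt1 (1.62, SE 0.21), the clock gene Per1 (1.34, SE 0.18) and Cebpd (1.34, SE 0.18), and the fifth was Errfi1, an inhibitor of EGF receptor signalling (0.79, SE 0.15). Mt2, the most raised of them in wild type, was 0.62 higher after exercise in the knockout (SE 0.18, limma adjusted p = 0.245). In the knockout 15 of 16 were positive with a median of 0.52 and 1 rose, Cebpd (1.11, SE 0.18, limma adjusted p = 0.0109), where 0.24% of genes were called higher. At an unadjusted p under 0.05 there were 11 of 16 in wild type and also 11 of 16 in the knockout, beside 8.21% and 8.93% of all genes. The Cebpd call in the knockout was lost without knockout sedentary replicate 2 (1.004, limma adjusted p = 0.0552) or knockout exercised replicate 3 (1.11, adjusted p = 0.0657). At rest the knockout median was 0.33 above wild type, 16 of 16 were positive, and Mt2 was higher (1.29, SE 0.18, limma adjusted p = 0.00741), where 0.0436% of genes were called higher. That call was lost without knockout sedentary replicate 1 (1.22, limma adjusted p = 0.0653). Markers of some other cells were higher in this comparison too. Values were positive for 9 of 9 fibroblast and matrix (median 0.33), 6 of 6 macrophage and leukocyte (0.18) and 4 of 4 Schwann cell and nerve markers (0.48), none of them called. Positive values were 2 of 3 for adipocyte, 3 of 6 for endothelial and 1 of 10 for skeletal muscle markers. Levels of the first 3 lists, in that order, were 1.08, 0.44 and 0.68 on knockout sedentary replicate 3. They were -0.20, -0.21 and -0.09 on replicate 2 and 0.17, 0.12 and -0.38 on replicate 1. Without knockout sedentary replicate 3, where matrix markers were high, the glucocorticoid median was 0.50 and Mt2 was 1.23 higher (limma adjusted p = 0.0387). The part of these markers in the other arrays was not tested. After exercise 0 were called for genotype by limma, with 4 of 16 at an unadjusted p under 0.05 (6.58% of all genes) and a median of 0.10.

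The list level of the glucocorticoid targets, the mean difference from their 12-array means, can be set beside the Ddit4 values by array. In wild type the list level was -0.49, -0.65 and -0.43 at rest and 0.33, 0.14 and 0.24 after exercise. In the knockout it was -0.02, -0.06 and -0.24 at rest and 0.48, 0.42 and 0.30 after exercise. The knockout exercised and wild-type exercised ranges overlapped for the list, while Ddit4 was lower on all 3 knockout exercised arrays. In knockout sedentary arrays the list lay above the wild-type sedentary arrays, while Ddit4 lay below them. Ddit4 is the gene targeted in the knockout, so comparing it across genotypes cannot show whether it follows these targets.

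The other 3 target lists had medians between 0.00 and 0.18 for exercise, beside -0.02 and 0.00 over all genes. Averaged over genotypes, limma called 0 of 15 hypoxia, 1 of 14 ATF4 and 2 of 12 p53 targets higher for exercise. Among glucocorticoid targets it called 10 of 16 higher, where 1.6% of all genes were called. Of 15 hypoxia targets 0 were called by limma in the 4 comparisons (1 and 2 for exercise in wild type and knockout, and 3 and 0 for genotype at rest and after exercise, had an unadjusted p under 0.05, beside the 8.21%, 8.93%, 7.7% and 6.58% of all genes), with medians of 0.06 in wild type and 0.07 in the knockout for exercise. Of 14 ATF4 targets 0 were called by limma in these 4 comparisons (6, 4, 3 and 1 of 14 at an unadjusted p under 0.05, in the same order and beside the same shares), with medians of 0.02 and 0.08. Atf3, a stress-induced transcription factor gene, was 1.74 and 1.48 higher (SE 0.45 each, adjusted p = 0.135 and 0.261). Of 12 p53 targets 1 rose in each genotype, Trp53inp1, an autophagy-linked gene (0.72 and 0.67, SE 0.12 each, limma adjusted p = 0.00934 and 0.0313), where 0.473% and 0.24% of genes were called higher. The list medians were 0.00 and 0.18, and its largest values, 1.84 and 1.38, were not called. At an unadjusted p under 0.05 there were 4 of 12 for exercise in each genotype, beside 8.21% and 8.93% of all genes. For genotype there were 1 at rest and 2 after exercise, beside 7.7% and 6.58%. The wild-type call of Trp53inp1 was lost without wild-type sedentary replicate 2 (0.64, limma adjusted p = 0.0695) or exercised replicate 3 (0.72, adjusted p = 0.0501). The knockout call was lost without replicate 2 or 3 of its sedentary or 1 or 3 of its exercised arrays (0.59 to 0.66, limma adjusted p up to 0.151). It was also lost with quantile normalisation (0.64, limma adjusted p = 0.0517), without the intensity trend (adjusted p = 0.0626) and with only the 2 groups compared (adjusted p = 0.0837). Sesn1, a stress-induced inhibitor of mTORC1 like REDD1, was 0.84 higher in knockout than in wild-type exercised muscle (SE 0.16, limma adjusted p = 0.0495), where 0.0946% of genes were called higher. That call stayed only where replicate 1 of either wild-type group was left out, and was lost without any of the other 10 arrays (0.72 to 1.02, adjusted p up to 0.283) and under 8 of 10 other settings.

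**Figure D4:**
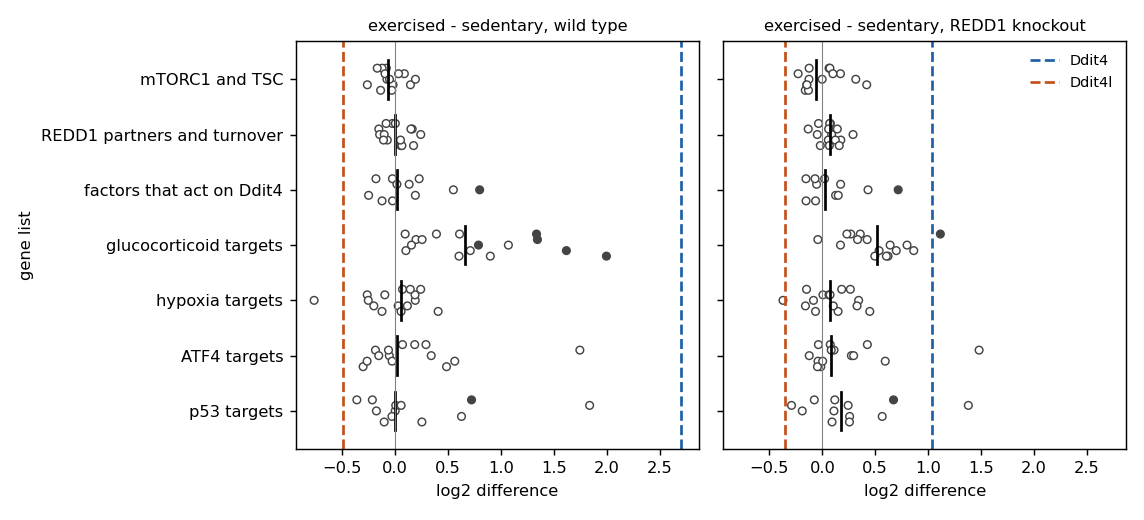
Log2 differences between exercised and sedentary muscle for the tested genes of 7 lists in wild type (left) and REDD1 knockout (right); each circle is a gene, filled where its adjusted p was under 0.05, the black bar is the list median, and dashed lines mark Ddit4 (2.70 and 1.04) and Ddit4l (-0.49 and -0.35). The glucocorticoid targets have medians of 0.66 and 0.52, while the other 6 lists have medians between -0.06 and 0.18.

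The chromosomal neighbours of the 2 genes were also read. Of the 20 tested genes nearest Ddit4, 10 on each side, 0 were called by limma for genotype at rest (values -0.20 to 0.28, smallest adjusted p = 0.67) or after exercise (-0.18 to 0.26, smallest adjusted p = 0.88), and none had an unadjusted p under 0.05. They included the mitochondrial calcium uniporter gene Mcu, at -0.02 and -0.17. Of the 20 nearest Ddit4l, 0 were called by limma for genotype at rest (-0.36 to 0.44) or after exercise (-0.22 to 0.39), with 3 and 1 at an unadjusted p under 0.05. Among all 13747 genes these unadjusted counts were 1058 at rest and 905 after exercise.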

How the data were processed

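The table deposited by the authors gives log2 expression values per transcript cluster for 12 Affymetrix arrays; the log base was read from the values (0.36 to 13.9), and background correction, normalisation, summarisation and build are not given in the sources used here. Partek is the software named per the submitters' processing notes. Array medians were 4.52 to 4.60, and r between arrays 0.967 to 0.985. Of 41345 clusters, 23521 had 1 gene symbol in the platform annotation; for each of 22180 genes the cluster with the highest mean was used, and 13747 genes above the table median in at least 3 arrays were tested. R 4.3.3 and limma 3.58.1 fitted all 12 arrays with 1 mean per group (8 residual degrees of freedom, intensity trend, Benjamini-Hochberg over all tested genes; called at an adjusted p under 0.05). The fit was tested on simulated data. The number of arrays limits the precision. RefSeq tables (GRCm38.p6) gave names, gene order and promoters, matched for both genes.

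The 2 genes, the gene lists and the marker lists (muscle, fibroblast and matrix, endothelium, macrophage and leukocyte, Schwann cell and nerve, adipocyte, neutrophil, red blood cell) were chosen with earlier results of these data known. No red blood cell marker had a cluster with 1 symbol; 5 of 6 macrophage markers were above the median on all arrays, and 3 of 4 adipocyte markers passed the filter. Named genes were both members, the 10 and 5 genes most like them, the 3 closest within groups, and called list members or, for the pathway lists, the 2 of smallest p, at most 4 a list and comparison; genes named beyond this rule were chosen after their values were seen.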

Additional observations from a re-analysis of the deposited data

How the results depend on the processing

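No paired analysis was possible because the groups share no replicate numbers in the labels.

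Of 384 recomputed values of the 2 genes, their difference and the linear gain of Ddit4 in the knockout, 374 were counted as unchanged. For values with a test, this means the same direction and side of the threshold. The 12 values of the linear gain carry no test. They were counted so if they moved by less than the SD of the knockout exercised arrays. Omitting 1 array gave the paralogue difference 2.14 to 2.47 for exercise and -1.53 to -1.20 for genotype, and the averaged values of Ddit4 1.75 to 2.02 and -1.66 to -1.39. The rise of Ddit4 in the knockout passed with median centring (1.05, adjusted p = 0.0499) and with array weights (1.11, adjusted p = 0.0233). Its deficit in exercised knockout muscle was lost without moderation (-2.37, adjusted p = 0.0984). Leaving out 1 array gave Ddit4 2.52 to 2.84 for exercise in wild type, 0.81 to 1.34 in the knockout, -1.89 to -1.36 for their difference, -0.79 to -0.61 for genotype at rest, -2.60 to -2.07 after exercise and 0.10 to 0.63 for knockout exercised minus wild-type sedentary. It gave Ddit4l -0.70 to -0.34 for exercise in wild type, -0.38 to -0.30 in the knockout, -0.53 to -0.35 averaged, -0.40 to -0.11 for genotype at rest, -0.26 to -0.08 averaged and -0.75 to -0.46 for knockout exercised minus wild-type sedentary. Values of Ddit4l that did not pass turned sign without 1 array: the difference of exercise effects was -0.0059 without wild-type sedentary replicate 1 (range -0.0059 to 0.35), and genotype after exercise was 0.096 without wild-type exercised replicate 2 (range -0.24 to 0.096).

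Without moderation the counts of called genes were 12 and 0 for exercise in wild type and knockout, 1 and 1 for genotype at rest and after exercise, and 67 and 23 for the averaged effects. With array weights they were 127 and 83 for exercise in wild type and knockout, 89 for genotype after exercise, and 348 and 193 for the averages. Without the trend they were 24 for exercise in knockout and 42 for averaged genotype. With only the 2 groups compared they were 25 for exercise in knockout and 13 for genotype after exercise. Leaving out 1 array gave 46 to 90 and 16 to 71 for exercise in wild type and knockout, 6 to 27 and 5 to 40 for genotype at rest and after exercise, and 144 to 220 and 38 to 149 for the averages, beside 78, 38, 19, 24, 220 and 75. Omissions that moved a count over 1.5 times were wild-type sedentary replicate 1 (46 for exercise in wild type, 144 for its average, 12 for genotype at rest), 2 (38 for averaged genotype) and 3 (45), wild-type exercised replicate 1 (71 for exercise in knockout, 40 for genotype after exercise, 149 for averaged genotype), 2 (12 and 43 for the last pair) and 3 (46 for exercise in wild type, 144 for its average, 5 and 40 for genotype after exercise and averaged). In the knockout they were sedentary replicate 1 (20 for exercise in knockout, 6 for genotype at rest) and 2 (42 for averaged genotype), and exercised replicate 1 (16 for exercise in knockout, 7 and 45 for genotype after exercise and averaged), 2 (13 and 45 for the same pair) and 3 (19 for exercise in knockout). Without moderation the wild-type exercise calls of Cebpb, Cebpd, Mt1, Per1 and Trp53inp1, the knockout calls of Cebpb, Cebpd and Trp53inp1 and the genotype calls of Mt2 and Sesn1 were lost. The cause of these moves was not tested. Omissions gave glucocorticoid medians of 0.56 to 0.73 and 0.43 to 0.57 for exercise in wild type and knockout and 0.25 to 0.50 for genotype at rest. Exercise medians of the mTORC1 and TSC list turned sign (-0.099 to 0.025 in wild type, -0.11 to 0.041 in knockout), as did those of hypoxia targets (-0.026 to 0.057 and -0.020 to 0.20). Ywhah turned to -0.072 (exercise in wild type) and Ywhaq to -0.0063 (genotype at rest, 0.15 by highest cluster) with clusters averaged. All differences rest on 3 arrays a group, and the table gives no signal over background.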

Other observations

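Between knockout exercised and wild-type sedentary muscle, the comparison added after the data were seen, Ddit4l differed by -0.61 (95% interval -0.95 to -0.26, SE 0.16, limma adjusted p = 0.0893). With wild-type exercised replicate 2 left out, an array of neither group, the adjusted p was 0.03 at the same difference. In the same comparison Eif4ebp1, which did not pass in comparisons of exercise or genotype alone, was 0.57 higher (SE 0.12, limma adjusted p = 0.0254) and was the 1 gene called of 14 tested in the mTORC1 and TSC list, where 1.2% of all genes were called. At an unadjusted p under 0.05 there were 2 of 14, beside 11.9% of all genes. How this call depends on single arrays and on the processing was not examined. Exercise and genotype both differ between these groups, so their parts cannot be told apart.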
